A study of Mus musculus with 4 samples.

Results

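The adipocyte identity and lipid storage genes described here are a list of 38 genes for fat hormones, fatty acid uptake, lipid droplet coats, triglyceride synthesis and breakdown, and the regulators of these. They were taken by name, from a list drawn up with earlier results of these data known, and each gene was read from its brightest probe set, by the mean log2 signal over the 4 arrays. Of the 38, 36 could be read, out of 18193 genes with a probe set assigned to a single symbol; Plin1, a lipid droplet coat protein, and Adrb3, an adrenergic receptor of fat cells, were not analysed here. The deposited detection call marks a probe set as Present, Marginal or Absent on an array, and 35 of the 36 were called Present on at least 1 array and 33 on all 4. Lep was called Absent on both chlorhexidine arrays, Cidea on the wild-type chlorhexidine array, and Ucp1, the uncoupling protein of brown fat, on all 4.

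The samples were RNA of the parietal peritoneum, the membrane that lines the abdominal wall, from C57BL/6J mice, hybridised to 3'-biased expression arrays. Mice were wild type or SAP-BNP-Tg (Tg mice), which carry brain natriuretic peptide under the serum amyloid P promoter, a promoter of the liver. Chlorhexidine gluconate, a chemical irritant used to scar the peritoneum, was injected into the abdomen at 0.1% in a solvent of 15% ethanol and 85% PBS, 0.01 mL per g of body weight, 3 times a week for 21 days. The vehicle mice of each genotype received ethanol/PBS, for which no volume or schedule is given; age, sex and the number of mice behind each array are not given either. Each of the 4 groups has 1 array, so no difference below has a replicate check and none carries a p-value. Nppb, the mouse gene of the peptide that the transgene encodes, was called Absent on all 4 arrays, with scaled signals of 6.91 and 20.1 on the wild-type vehicle and chlorhexidine arrays and 9.04 and 4.04 on the transgenic ones, so these arrays do not check the genotype labels.

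White adipocytes store fatty acids as triglyceride in a single large lipid droplet and release them again on hormonal demand. Lipoprotein lipase and fatty acid carriers bring the acids in, the glycerol phosphate pathway joins them to a glycerol backbone, and perilipins and CIDE proteins coat the droplet and hold back the lipases. The same cells secrete leptin, adiponectin and, in mice, resistin, under the transcription factors PPARG and C/EBP alpha, and fat lies beneath the mesothelium of the abdominal cavity.

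Signals are the deposited linear values after each array was scaled to a common trimmed mean, in arbitrary units, and they order arrays for 1 gene, not genes on 1 array. Calls were made by size: the gene differed at least 2-fold, a log2 difference of 1, and it was Present on the brighter array and lay there at or above the 25th percentile of Present signals, which was 34.5 to 35.4 on the 4 arrays. The words rose and fell are kept for such genes, and a pair of signals is given as vehicle and then chlorhexidine. A fold against an array without a Present call is a ratio to an undetected reading, and neither a measured size nor a firm minimum. The only spread that the arrays hold is that between probe sets of 1 gene: over 4431 genes with a pair of probe sets Present on all arrays, the SD of the chlorhexidine difference between them was 0.44 log2 units in wild type and 0.29 in Tg mice.

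The wild-type vehicle array had an 18S ribosomal RNA signal of 898.5 against 82.8 to 117 on the others, and a ratio of 3' to middle signal for actin of 5.81 against 2.23 to 2.84. Other quality ratios set it less apart: the 3' to 5' ratio was 1.22 against 1.07 to 1.15 for actin and 0.85 against 0.807 to 0.82 for Gapdh, and the 3' to middle ratio of Gapdh was 0.888 on both wild-type arrays. Between 50.5% and 55.1% of probe sets were called Present. The genotypes share no array in the comparison of chlorhexidine with vehicle, whereas each comparison between genotypes shares its arrays with these. With 1 array a group, a trait of an array and its group cannot be told apart.

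Adipocyte genes were mostly lower under chlorhexidine: 30 of the 35 detected genes were below 0 in wild type and 30 in Tg mice. Over all detected genes, 50.1% were below 0 in wild type and 49.9% in Tg mice. None of the 35 was called higher in either, where 8.22% of all detected genes were in wild type and 3.81% in Tg mice. In either direction, 13.2% of the 12754 detected genes of the array were called in wild type and 5.21% in Tg mice. In wild-type mice 12 of the 35 detected genes fell, where 4.93% of all detected genes were called lower. In SAP-BNP-Tg mice 5 of the 35 fell, against 1.4% of all genes. Lep, Cidec, Dgat2 and Sncg fell in both genotypes, 4 of the 12 wild-type and 4 of the 5 transgenic calls, where 0.823% of all genes fell in both. The median log2 difference over the 35 genes was -0.76 in wild type and -0.49 in Tg mice, while the medians over all detected genes were -0.00088 and 0.0012. Over all 36 measured genes, Ucp1 included, the medians were -0.82 and -0.48. Of the 35 genes, 28 were below 0 in both genotypes, a pattern that 36.4% of all detected genes had, and 3 were above 0 in both. The summed signal of the 36 measured genes went from 51879 to 32751 in wild type, 0.631 of the vehicle level, and from 48755 to 37743 in Tg mice, 0.774 of it. Such sums weigh bright probe sets most: Car3, Lpl and Fabp4 read 10814.5, 6930 and 6383 on the wild-type vehicle array. In whole tissue, fewer adipocytes and less RNA per adipocyte cannot be told apart.

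**Figure D1:**
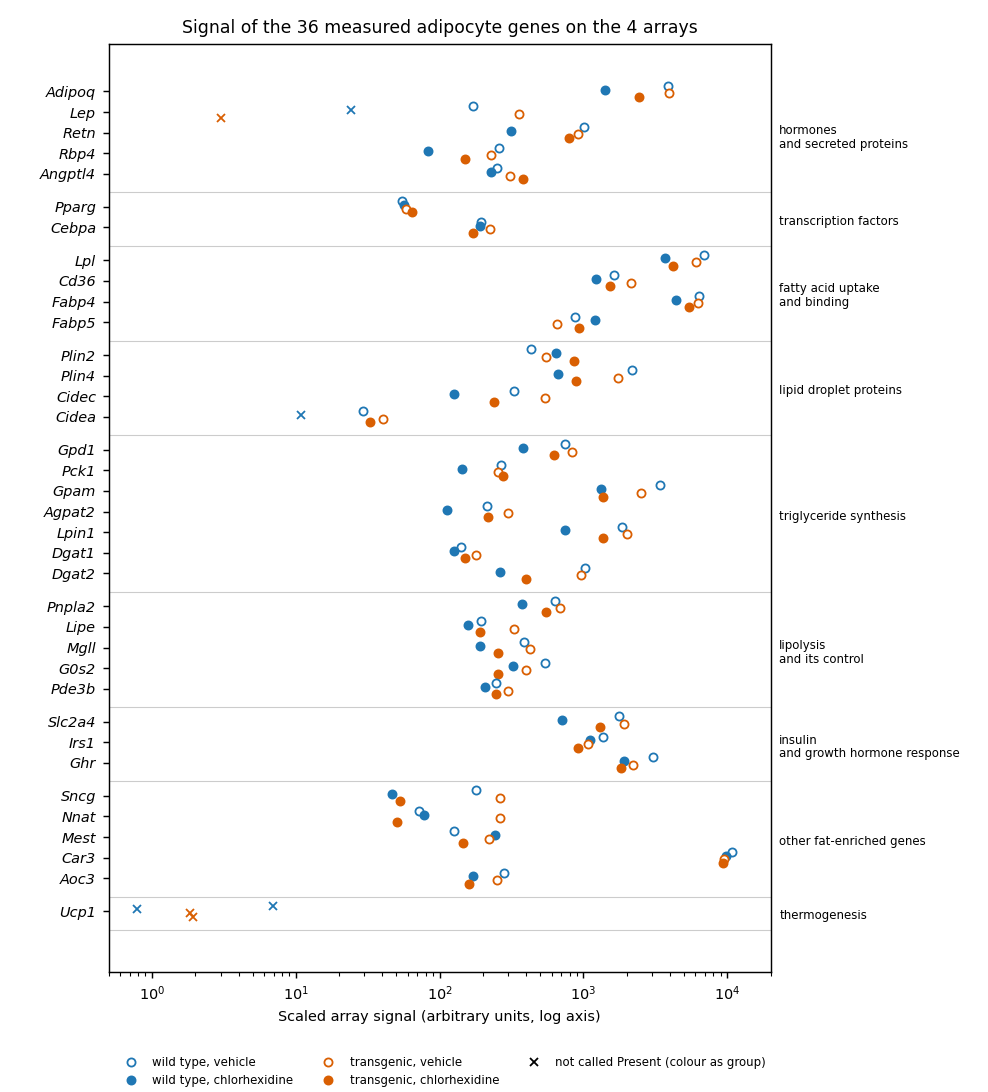
Scaled signal (arbitrary units, log axis) of each of the 36 measured adipocyte genes on each of the 4 arrays, grouped by role; open circles are vehicle arrays, filled circles chlorhexidine arrays, and crosses mark arrays on which the gene was not called Present. In most genes the filled circles lie left of the open ones, as for Adipoq at 3865 and 1409 in wild type and 3949 and 2434 in Tg mice, while Ucp1 has crosses on all 4 arrays.

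Lep encodes leptin, the hormone by which fat mass is signalled to the brain. It read 169 on the wild-type vehicle array and 24.3, Absent, on the wild-type chlorhexidine array, 6.97-fold lower by these readings. In Tg mice it read 354 under vehicle and 3.03, Absent, under chlorhexidine, 117-fold lower by these readings. The size of this fold rests on the Absent reading: the log2 difference of -6.87 was -3.46 with a pseudocount of 32, and -5.80 against the wild-type vehicle array. Both vehicle arrays detected leptin and neither chlorhexidine array did. Sncg, gamma-synuclein, which is abundant in white fat and in sensory neurons, read 178 and 46.6 in wild type and 261 and 53.2 in Tg mice. It fell 3.82-fold and 4.91-fold, and the vehicle arrays lay above both chlorhexidine arrays.

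Cidec encodes the droplet protein that lets small lipid droplets fuse into a large one. It read 328.5 on the wild-type vehicle array and 126 on the chlorhexidine array, and fell 2.6-fold. In Tg mice it read 544 and 238 and fell 2.29-fold. The transgenic call rests on its own vehicle array: against the wild-type vehicle array the transgenic chlorhexidine array differed by -0.47 on the log2 scale. Dgat2, the acyltransferase that adds the last fatty acid of a triglyceride, read 1026 and 262 in wild type and fell 3.91-fold. In Tg mice it read 959 and 396 and fell 2.43-fold. At the 2-fold threshold, the calls of Dgat2 and Sncg held in both genotypes under 10 other settings of scaling, pseudocount, filter, probe set and vehicle array, those of Lep under all but the one that keeps only genes Present on all 4 arrays. Sncg and Lep have a single probe set each, so the probe set settings could not change their calls. Dgat2 and Sncg were Present on all 4 arrays, so the filter settings could not change theirs. At a 3-fold threshold 2 genes were left that fell in both genotypes, and Dgat2, at 2.43-fold in Tg mice, was not among them.

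The windows of 250 bases upstream of the start of transcription of Lep, Cidec and Sncg are shown because these genes fell in both genotypes, and that of Rbp4, which fell in wild-type mice, was chosen after its motif matches were seen. They come from the RefSeq annotation of GRCm38.p6, at chr6:29059971-29060220 (plus strand) for Lep, chr6:113434765-113435014 (minus strand) for 1 of the 2 annotated starts of Cidec, chr14:34374670-34374919 (minus strand) for Sncg and chr19:38124812-38125061 (minus strand) for 1 of the 2 of Rbp4. Each is printed 5' to 3' along the gene, and capitals mark matches on either strand to TTGCNNAA, a C/EBP consensus, or to TATAAA, the TATA box.
Lep: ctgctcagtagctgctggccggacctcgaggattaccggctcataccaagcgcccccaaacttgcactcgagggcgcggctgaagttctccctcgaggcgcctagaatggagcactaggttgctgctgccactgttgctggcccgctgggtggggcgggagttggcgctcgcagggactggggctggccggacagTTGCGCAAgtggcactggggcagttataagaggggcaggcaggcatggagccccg
Cidec: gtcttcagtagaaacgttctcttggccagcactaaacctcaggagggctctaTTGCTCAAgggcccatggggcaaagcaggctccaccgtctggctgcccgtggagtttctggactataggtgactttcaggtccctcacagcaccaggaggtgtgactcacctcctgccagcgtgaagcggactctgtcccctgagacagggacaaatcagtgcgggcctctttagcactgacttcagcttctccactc
Sncg: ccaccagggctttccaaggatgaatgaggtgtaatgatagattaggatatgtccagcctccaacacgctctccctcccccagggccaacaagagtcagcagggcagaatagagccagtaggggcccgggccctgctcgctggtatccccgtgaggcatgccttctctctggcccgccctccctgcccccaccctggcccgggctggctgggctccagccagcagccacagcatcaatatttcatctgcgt
Rbp4: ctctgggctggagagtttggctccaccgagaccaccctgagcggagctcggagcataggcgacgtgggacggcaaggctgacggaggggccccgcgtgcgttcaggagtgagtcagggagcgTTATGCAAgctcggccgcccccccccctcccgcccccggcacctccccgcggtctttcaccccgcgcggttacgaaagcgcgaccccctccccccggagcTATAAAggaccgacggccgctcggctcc

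The C/EBP match begins at -55 from the start in Lep, -198 in Cidec and -128 in Rbp4, which also has a TATA box at -28. The Sncg window holds neither motif, and neither do the windows of the other start of Cidec and of Rbp4. Adipoq, Retn, Plin4, Gpam, Lpin1 and Mgll, which also fell in wild type, have no C/EBP match in their windows. Of the 38 genes, 25 had a window in the table, 35 windows in all, and Dgat2 is among the genes with none. The C/EBP motif was found in 6 of these 35 windows, those of Cidec, Lep, Mest, Plin1, Pparg and Rbp4, and in 9.56% of all 32851 windows of that length. The core nuclear receptor site AGGTCA, searched on both strands, was in 7 of the 35 and in 14.0% of all windows, and TATAAA in 4 of the 35 and in 12.4%. The direct repeat of that site with 1 base between its copies, the form bound by PPARG with its partner RXR, was in none of the 35 and in 0.0335% of all windows. These matches are letters in a window and not sites shown to be bound.

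Among the other fat hormones 3 fell in wild type and were not called in Tg mice, a difference between genotypes that was not tested. Adipoq, adiponectin, the insulin-sensitising hormone made almost only by fat cells, read 3865 and 1409 on the wild-type arrays and fell 2.74-fold. On the transgenic arrays it read 3949 and 2434, a 1.62-fold difference below the threshold. Retn, resistin, which opposes insulin action in mice, read 1009 and 315 in wild type and fell 3.21-fold, but 911 and 788 in Tg mice, a 1.16-fold difference. Rbp4, the retinol carrier that fat also secretes, read 259.9 and 83.2 in wild type and fell 3.13-fold. Its transgenic signals were 228 and 149.8, 1.52-fold apart. For these 3 hormones the wild-type chlorhexidine array was the lowest of the 4. Angptl4, a fasting-induced inhibitor of lipoprotein lipase, read 252 and 228 in wild type and 307.5 and 378 in Tg mice, and was not called. The median difference of the 5 hormones and secreted proteins was -1.64 in wild type and -0.60 in Tg mice.

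The transcription factors that define the adipocyte were not called. Pparg, the master regulator of fat cell formation, read 54.3 and 56.7 in wild type and 58.2 and 64.1 in Tg mice, log2 differences of 0.06 and 0.14. Cebpa, its partner, read 193 and 190.3 in wild type and 223.5 and 169.9 in Tg mice, differences of -0.02 and -0.40. Both were Present on all 4 arrays and, by these values, lay nearer to the vehicle level in wild type than the hormones did.

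By their brightest probe sets, genes of fatty acid uptake and binding shifted by less than 2-fold. Other probe sets Present on all 4 arrays gave wild-type log2 differences of -1.18 for Lpl, -0.81 and -1.67 for Cd36 and 0.84 for Fabp5. Those of Fabp4 were -0.69, -0.05 and 0.53. Lpl, the lipase that frees fatty acids from circulating lipoproteins, read 6930 and 3704 in wild type and 6011 and 4214 in Tg mice, 1.87-fold and 1.43-fold lower under chlorhexidine. Cd36, a fatty acid transporter also of macrophages and endothelium, read 1619 and 1213, then 2149.9 and 1526. Fabp4, the abundant fatty acid carrier of the adipocyte, read 6383 and 4424, then 6225 and 5413. By the brightest probe set, Lpl, Cd36 and Fabp4 were thus each lower under chlorhexidine in both genotypes without reaching a call. Fabp5, a carrier shared with macrophages and epithelia, was on the other side, at 869 and 1193 in wild type and 656 and 929 in Tg mice, 1.37-fold and 1.42-fold higher.

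The droplet proteins were split. Plin4, a perilipin of small droplets in fat and muscle, read 2157 and 668 in wild type and fell 3.23-fold. It read 1744 and 887 in Tg mice, a 1.97-fold difference just under the threshold. Cidea, a droplet protein of brown and beige fat, read 29.3 and 10.9 in wild type, the latter Absent, and 40.2 and 33.0 in Tg mice; its log2 difference of -1.42 in wild type was not called, because its vehicle signal was too dim. Plin2, the perilipin of droplets in many cell types, foamy macrophages among them, read 434.5 and 639 in wild type and 548 and 863 in Tg mice, 1.47-fold and 1.57-fold higher and not called. Plin4 and Cidec were thus lower in both genotypes, and Plin2 was higher in both. Plin2, Fabp5 and Pparg were the 3 genes above 0 in both genotypes. The 10 macrophage markers had a summed signal of 6445 and 11627 in wild type and 6889 and 10945 in Tg mice, all 10 above 0 in each genotype, with 5 and 4 called higher. Over all detected genes, 8.22% were called higher in wild type and 3.81% in Tg mice. The part of macrophages in the values of Plin2 and Fabp5 was not tested.

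Enzymes of triglyceride synthesis made up the next group of falls in wild-type mice. Gpam, which attaches the first fatty acid to glycerol phosphate, read 3401 and 1322 in wild type and fell 2.57-fold. In Tg mice it read 2494 and 1375, 1.81-fold apart. The wild-type call was lost against the transgenic vehicle array, at -0.92, and in the mean over its probe sets, at -0.25. Lpin1, the phosphatidate phosphatase of the pathway, read 1858 and 744 in wild type and fell 2.5-fold. Its transgenic signals were 2004 and 1357, 1.48-fold apart. Dgat1, the acyltransferase that shares the last step with Dgat2, read 142 and 126 in wild type and 178 and 149.2 in Tg mice and was not called, so by the call only 1 of the pair fell.

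Gpd1, which makes glycerol phosphate from glycolysis, read 744 and 383 in wild type and 833 and 620.0 in Tg mice, 1.95-fold and 1.34-fold apart. Agpat2, which adds the second fatty acid and is mutated in a congenital lipodystrophy, read 214 and 112 in wild type and 299 and 216 in Tg mice, 1.91-fold and 1.39-fold apart. Both lay just under the call in wild type. Pck1, the enzyme of glyceroneogenesis in fat, read 265 and 144 in wild type but 256 and 275 in Tg mice, log2 differences of -0.88 and 0.10. By the brightest probe sets, all 7 synthesis genes were below 0 in wild type and 6 of 7 in Tg mice, and their summed signal was 0.404 and 0.625 of the vehicle level.

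Of the lipolysis genes 1 was called, in wild type. Mgll, the lipase that removes the last fatty acid, read 383 and 192 in wild type, at the threshold of 2-fold, and 425 and 255 in Tg mice, 1.66-fold apart; its wild-type call was lost under 4 of these 10 other settings. Pnpla2, adipose triglyceride lipase, read 634 and 375 in wild type and 685 and 549 in Tg mice, 1.69-fold and 1.25-fold apart. Lipe, hormone-sensitive lipase, read 192 and 156 in wild type and 331 and 189.7 in Tg mice, 1.23-fold and 1.75-fold apart. All 3 lipases were lower under chlorhexidine in both genotypes, Lipe more so in Tg mice and the other two more so in wild type. G0s2, the inhibitor of Pnpla2, read 539.9 and 325 in wild type and 396 and 253.5 in Tg mice. Pde3b, the phosphodiesterase by which insulin restrains lipolysis, read 248 and 207 in wild type and 300.5 and 248 in Tg mice. Neither was called, and the median of the 5 measured lipolysis genes was -0.73 in wild type and -0.64 in Tg mice.

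Slc2a4, the insulin-regulated glucose transporter of fat and muscle, read 1769 and 712 in wild type and fell 2.48-fold. It read 1919 and 1311 in Tg mice, 1.46-fold apart. The wild-type call was lost in the mean over its probe sets, at -0.76. Irs1, the adaptor of the insulin receptor, read 1367 and 1107 in wild type and 1074 and 913 in Tg mice. Ghr, the growth hormone receptor, read 3061 and 1912 in wild type and 2203 and 1820.3 in Tg mice. Neither receptor-side gene was called, though both were lower under chlorhexidine in each genotype by the brightest probe set.

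Among the remaining genes, Nnat and Mest ran opposite ways in the genotypes. Nnat, neuronatin, an imprinted gene of the endoplasmic reticulum expressed in fat, read 72.3 and 77.3 in wild type but 262 and 50.2 in Tg mice, where it fell 5.23-fold. This fall rests on the transgenic vehicle array, the highest of the 4; against the wild-type vehicle array the difference was -0.53. Mest, an imprinted gene that marks growing adipocytes, read 126 and 242 in wild type and 222 and 144 in Tg mice, 1.92-fold higher and 1.54-fold lower and not called. Aoc3, the amine oxidase of the adipocyte and vessel surface, read 282 and 172 in wild type and 251 and 159.9 in Tg mice, 1.64-fold and 1.57-fold lower. Car3, a carbonic anhydrase of fat and slow muscle, read 10814.5 and 9847 in wild type and 9449 and 9317 in Tg mice. By this brightest probe set it was level to within 1.1-fold. Its dimmer probe sets, Present on all 4 arrays, gave log2 differences of -0.23, -0.42 and -0.17 in wild type. In Tg mice they gave -0.05, -0.87 and -0.96. Ucp1 read 6.91 and 0.787 in wild type and 1.84 and 1.92 in Tg mice, and no change can be read from signals called Absent.

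**Figure D2:**
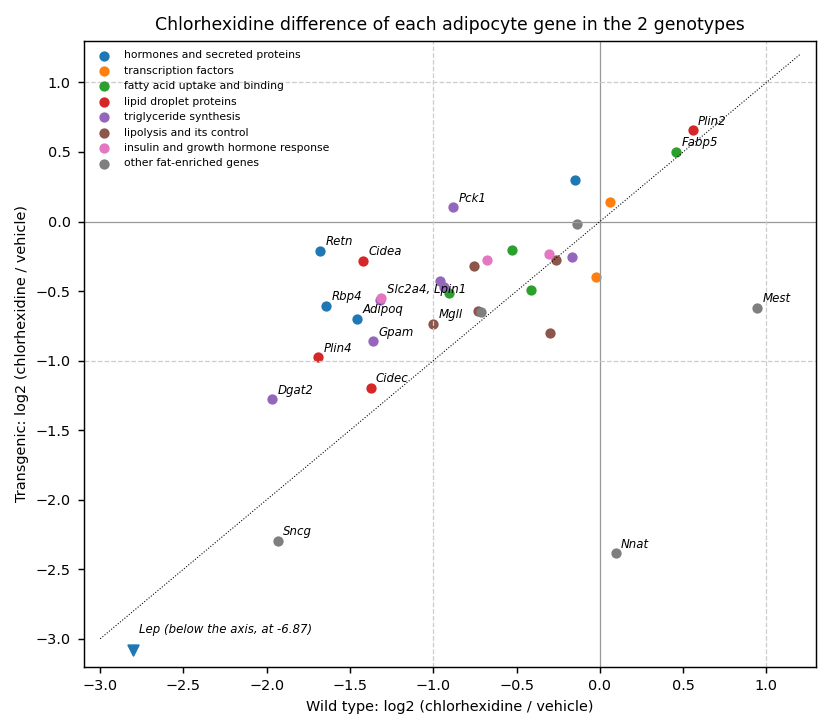
Log2 difference between chlorhexidine and vehicle of the 35 detected adipocyte genes in wild type (horizontal) and Tg mice (vertical), coloured by role, with dashed lines at a 2-fold difference and a dotted line of equal differences; the triangle for Lep lies below the axis, at -6.87. Of the 35 genes, 28 lie in the lower left part, and Nnat and Mest lie below the line of 0 in Tg mice only.

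Of the 35 genes, 23 were lower under chlorhexidine in wild type by more than in Tg mice, where 5065 of all 12754 detected genes were. This is a description without a test. The chlorhexidine difference in the transgenic genotype minus that in wild type was above 0 in 26 of 35 genes, where 51.2% of all detected genes were, and its median was 0.27 against 0.015 over all genes. Retn and Rbp4 had values of 1.47 and 1.04, and Nnat and Mest stood on the other side at -2.48 and -1.56. No such value can be read for Lep or Cidea, which were Absent under chlorhexidine in at least 1 genotype. Both are still among the 35 genes of these counts and the median. This median was 0.089 in the mean over the probe sets of a gene, 0.11 under quantile normalization and 0.15 under cyclic loess. It was 0.38 under median centring. With the signals as deposited, without scaling, the median turned to -0.19, while the medians over all genes were 0.25 in wild type and -0.20 in Tg mice in place of values near 0.

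Between the genotypes under vehicle, 2 of the 35 genes were called higher in Tg mice, where 0.957% of all genes were, and none lower, where 0.502% were. Lep was 2.09-fold and Nnat 3.63-fold higher. At the 2-fold threshold the call of Lep was lost under 4 of 9 other settings and that of Nnat under none of 9. The median of the list was 0.11, against -0.044 over all genes. Under chlorhexidine, 1 of the 35 was called higher in Tg mice, against 0.784% of all genes, and none lower, against 0.964%. This was Retn, at 788 and 315, 2.5-fold apart, a call kept under 9 other settings at the 2-fold threshold and lost at 3-fold. Retn and Nnat have a single probe set each, Present on all 4 arrays. The settings of probe set and filter, counted among the 9, could therefore not change their calls. Agpat2, Pck1 and Cidec had log2 differences of 0.95, 0.93 and 0.91. Cidea was Absent in wild type and Present, but too dim for a call, in Tg mice. By the brightest probe sets, all 7 genes of triglyceride synthesis read higher in transgenic than in wild-type mice under chlorhexidine. So did 25 of the 35 genes, where 46.8% of all genes did. Gpam did so by only 0.056 log2 units, and its second probe set, Present on all 4 arrays, read -0.24. The second probe sets of Gpd1, Pck1, Lpin1 and Dgat2 read above 0.

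**Figure D3:**
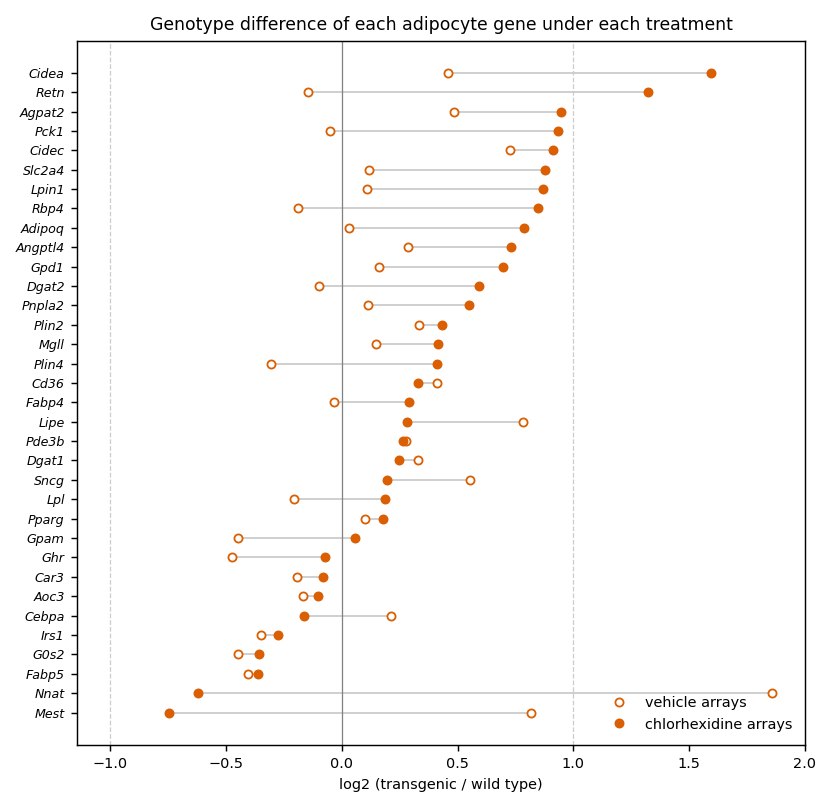
Log2 difference between transgenic and wild-type mice of 34 detected adipocyte genes, on the vehicle arrays (open circles) and on the chlorhexidine arrays (filled circles), with dashed lines at a 2-fold difference. Lep is left out because neither chlorhexidine array detected it, and the chlorhexidine point of Cidea rests on an Absent wild-type signal; Retn reaches 1.32 under chlorhexidine, and Nnat goes from 1.86 under vehicle to -0.62 under chlorhexidine.

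Of the list, 13 genes had a second probe set Present on all 4 arrays. In wild type the median chlorhexidine difference of these genes was -0.90 with the brightest probe set and -0.69 with the second brightest, and 5 and 4 of the 13 reached -1. Gpam read -1.36 and 0.86 with its probe sets, Pck1 -0.88 and 0.28, Slc2a4 -1.31 and -0.20, and Gpd1 -0.96 and -0.06. In these 4 genes the probe sets gave different pictures of the wild-type arrays. Dgat2 read -1.97 and -1.27, Lpin1 -1.32 and -1.49, Mgll -1.0 and -1.14 and Lpl -0.90 and -1.18, lower with either probe set. In Tg mice the medians were both -0.49, and only Pck1 changed sign. In the vehicle comparison between genotypes the second probe set read higher than the first in 11 of 13 genes, as it did in 62.6% of 4431 genes. The second probe sets of Gpam, Pck1, Gpd1 and Slc2a4 read 1.3, 1.15, 1.10 and 0.98 there, that is, lower on the wild-type vehicle array than on the transgenic one, the former being the array with the high 3' to middle ratio of actin; the part of RNA quality in this was not tested.

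**Figure D4:**
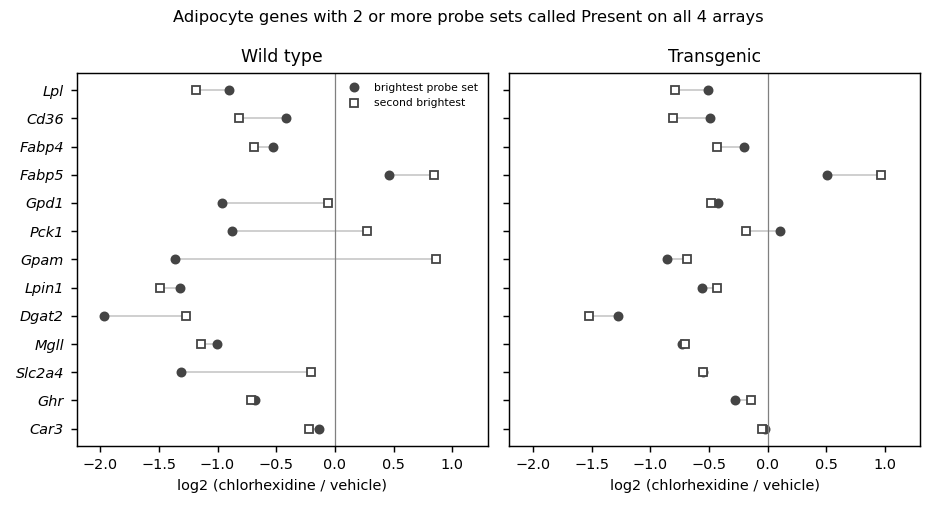
Log2 difference between chlorhexidine and vehicle of the 13 adipocyte genes with 2 or more probe sets Present on all 4 arrays, for the brightest probe set (filled circles) and the second brightest (open squares), in wild type (left) and Tg mice (right). The pairs of Gpam (-1.36 and 0.86) and Slc2a4 (-1.31 and -0.20) lie far apart in wild type and close together in Tg mice.

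Further genes of the adipocyte moved with the list. Of 34 other adipocyte genes, 28 were measured and 26 detected, and 7 fell in wild type and 2 in Tg mice, with medians of -0.62 and -0.41 and no gene higher. Over all detected genes, 4.93% were called lower in wild type and 1.4% in Tg mice. Npr3, the clearance receptor for natriuretic peptides, which fat expresses, read 252 and 46.3 in wild type and 308 and 49.8 in Tg mice, 5.45-fold and 6.19-fold lower. Trarg1, a protein of the vesicles that carry Slc2a4, read 78.4 and 27.2 in wild type and 100.1 and 21.4 in Tg mice. It was 2.89-fold and 4.67-fold lower, against chlorhexidine readings called Absent. These 2 genes fell in both genotypes.

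Of 30 further genes of the lipid droplet and the triglyceride cycle, 24 were detected, and 4 fell in wild type and none in Tg mice, with medians of -0.33 and 0.0081; the latter changed sign under 5 of 10 other settings. Plin5, the perilipin of oxidative tissues, read 296 and 67.5 in wild type and fell 4.39-fold, and 196 and 121 in Tg mice. Ces1f, a carboxylesterase, read 69.9 and 16.9, the latter Absent, in wild type, 4.13-fold lower, and 45.4 and 65.0 in Tg mice. The brown and beige list had 12 of 19 genes detected, with 4 falling and 1 rising in wild type and 1 falling in Tg mice. That 1 was Ucp3, an uncoupling protein also of muscle, which read 689 and 206 in wild type and 731 and 341 in Tg mice, 3.35-fold and 2.14-fold lower. Beside the counts of both lists, 4.93% of all detected genes were called lower and 8.22% higher in wild type. In Tg mice these shares were 1.4% and 3.81%.

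Genes of adipocyte precursors had medians above 0. Of 22, 18 were detected, 5 rose and 1 fell in wild type and 5 rose in Tg mice, with medians of 0.57 and 0.40. The calls depended on the scaling: with median centring 1 rose and 2 fell in wild type and 3 rose in Tg mice, and with a pseudocount of 32, 2 rose in wild type and 0 in Tg mice. In all genes 8.22% were called higher in wild type and 3.81% in Tg mice. Gdf10, a TGF-beta family ligand, read 189.1 and 501 in wild type and 223 and 457 in Tg mice and rose 2.65-fold and 2.05-fold. Clec11a rose 2.02-fold and 2.31-fold and Pi16, a marker of fibroblast-like progenitors, 2.1-fold and 2.21-fold. Many of these genes are also expressed by fibroblasts, whose 9 markers summed to 1.94 and 1.66 times the vehicle level, with all 9 above 0 in each genotype; their part in these values was not tested.

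The tissue held more than fat, and markers of other cell types also differed between the arrays, some lower and some higher under chlorhexidine. The adipocyte markers Adipoq, Cidec, Lep and Lipe, which belong to the list itself, summed to 0.377 and 0.553 of the vehicle level. On the wild-type vehicle array, Adipoq held 3865 of their sum of 4556. Skeletal muscle markers, all 10 Present on every array, summed to 77869 to 95346, and to 0.829 and 1.03 of the vehicle level; all 10 were below 0 in wild type and 2 in Tg mice, and none was called. For comparison, 12 genes of the list that muscle also expresses were taken out. They were Slc2a4, Lpin1, Gpd1, Car3, Ghr, Lpl, Irs1, Cd36, Pnpla2, Pde3b, Dgat1 and Dgat2, while Plin4, also of muscle, was kept. The medians were then -0.88 in wild type and -0.62 in Tg mice. Mesothelial markers, all 10 Present on every array, summed to 484 to 893, and to 0.541 and 1.02 of the vehicle level, with 3 called lower in wild type and 1 higher in Tg mice. B cell markers summed to 0.0284 and 0.114, with all 4 called lower in both genotypes and Cd79a and Ms4a1 Absent on both chlorhexidine arrays. Over all detected genes, 4.93% were called lower in wild type, 3.81% higher in Tg mice and 0.823% lower in both genotypes. On the wild-type vehicle array, Jchain held 3100 of the B cell sum of 3484. Red cell markers summed to 1.11 and 8.56, so that the transgenic chlorhexidine array stood apart. These sums rest on Alas2 and Slc4a1, as Hba-a1 was Absent on all 4 arrays. Endothelial markers summed to 1.32 and 0.973. The part of a change in the mix of cells in the adipocyte values was not tested.

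**Figure D5:**
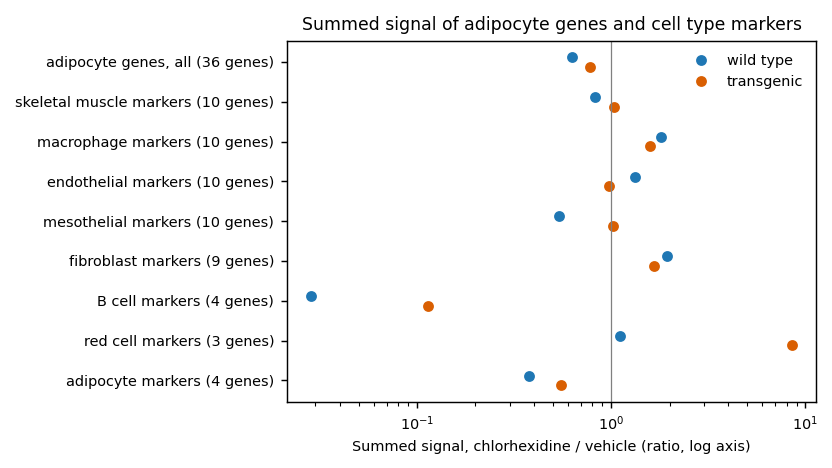
Summed scaled signal under chlorhexidine divided by that under vehicle (ratio, log axis) for the 36 measured adipocyte genes and for markers of 8 cell types, in wild type (blue) and Tg mice (orange), with a line at 1. The adipocyte genes lie at 0.631 and 0.774, the macrophage markers at 1.80 and 1.59, and the B cell markers lowest at 0.0284 and 0.114.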

How the data were processed

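The members and the gene lists were chosen with earlier results of these data known. Per the labels, total RNA was labelled with a 3' amplification kit; the deposited files give, for each probe set, a linear signal intensity, its detection p-value and the call made from it. The sources used here do not give the algorithm, its scaling or an annotation build, and the deposited series table held the same values as the array files. Of 45101 probe sets, 64 controls were left out; 34945 have a single symbol, of which 34741 were updated through the GRCm38.p6 RefSeq table. Each array was scaled to a common 2% trimmed mean, values were floored at 0.1, and log2 was taken. Genes named outside the list were up to 4 of each of 4 lists called the same way in both genotypes, by the smaller difference, or else up to 2 called in 1 genotype; of 8 marker lists, totals and counts. Quantile normalization and cyclic loess came from limma 3.58.1 under R 4.3.3. Only the 2-fold cut of the call rule was run on simulated data, with every gene set as Present and changes planted above the cut. That run does not check the Present and brightness filters or the error of the real arrays. Alternatives were scaling, pseudocount, filter, probe set, fold threshold and vehicle array. With 1 array a group, precision rests on signal alone.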

Additional observations from a re-analysis of the deposited data

Results flagged for a closer look

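With 1 array a group, the results below are those whose chlorhexidine difference had opposite signs in the 2 genotypes; the difference between genotypes was not tested, and 27.2% of all detected genes had opposite signs. Angptl4 had log2 differences of -0.15 in wild type and 0.30 in Tg mice. Pck1 had -0.88 and 0.10 with its brightest probe set, and 0.28 and -0.18 with the second, also Present on all 4 arrays. Nnat had 0.095 and -2.39, and Mest had 0.94 and -0.62. Against the other genotype's vehicle array Nnat read -1.76 and -0.53, and Mest 0.13 and 0.20, so neither then had opposite signs. The median of the genes of the lipid droplet and triglyceride cycle was -0.33 in wild type and 0.0081 in Tg mice. The median of the brown and beige fat genes was 0.052 and -0.18. Of these medians, that of the lipid droplet genes in Tg mice changed sign under 5 of 10 other settings. That of the brown and beige genes in wild type changed sign under 7 of 10, so that neither contrast of signs was stable.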

How the results depend on the processing

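The median of the adipocyte genes kept its sign in both genotypes under 12 other settings, from -0.94 to -0.51 in wild type and from -0.70 to -0.36 in Tg mice. Counts moved with the fold threshold. The count in wild type, 12, was 21 at 1.5-fold and 6 at 3-fold. That in Tg mice, 5, was 15 at 1.5-fold, 3 at 3-fold and 8 with the signals as deposited, and the count lower in both, 4, was 11 at 1.5-fold and 2 at 3-fold. Between genotypes under vehicle the count of 2 was 5 at 1.5-fold and with deposited signals, and 1 at 3-fold, under quantile normalization, cyclic loess, a pseudocount of 32 and Present on all 4 arrays; the median, 0.11, was 0.53 with deposited signals. Under chlorhexidine the count of 1 was 13 at 1.5-fold, 0 at 3-fold, 3 under quantile normalization, 2 under median centring and 4 in the mean of probe sets or with dim probe sets kept. The median difference of differences, 0.27, reversed to -0.19 with deposited signals and was 0.089 in the mean of probe sets. Among other lists, the other adipocyte genes called went from 7 to 11 under median centring in wild type, and from 2 to 4 with dim probe sets kept or with the other vehicle array and 1 with Present on all 4 in Tg mice. The lipid droplet list went from 4, all lower, to 7 under median centring, all lower, and 7 with deposited signals, 4 lower and 3 higher, and from 0 to 1 with dim probe sets kept and 4 with the other vehicle array. The brown and beige list in wild type went from 5 to 9 with dim probe sets kept and to 3 with deposited signals or the other vehicle array, its median from 0.05 to -0.52 in the mean of probe sets; in Tg mice its count went from 1 to 5 with dim probe sets kept and 0 in the mean. The precursor list in wild type went from 6, 1 lower and 5 higher, to 3 under quantile and loess, 1 lower and 2 higher, 3 under median centring, 2 lower and 1 higher, and 2 with the pseudocount, both higher. In Tg mice it went from 5 to 3 under median centring and the mean, 2 with the other vehicle array, 1 with deposited signals and 0 with the pseudocount. The causes were not tested. The second probe set, leaving out muscle genes, the other genotype's vehicle array for single genes and all settings for the other lists were chosen after seeing the data. Over all genes, calls in wild type split 629 lower and 1049 higher, 1073 and 773 under median centring, and 318 and 1586 with deposited signals; in Tg mice 178 and 486, against 320 and 329 with deposited signals. Median centring moved the median of all genes in wild type by -0.18. Absent calls limit what can be read for Lep, Cidea and Ucp1. No paired analysis was possible because each group has 1 array.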
